A study of Mus musculus with 4 samples.

Results

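The TGF-beta, activin and myostatin branch was taken as 10 genes of the deposited expression table, out of 55267 entries in all, and each gene name matched 1 entry. The genes were chosen by name and not by a cut on their values, but earlier results of these data were known. They are 7 ligand genes (Tgfb1, Tgfb2, Tgfb3, the activin subunit genes Inhba and Inhbb, the myostatin gene Mstn and Gdf11) and 3 receptor genes (Tgfbr1, Tgfbr2 and Tgfbr3). RNA-seq had been performed on cultured muscle stem cells (MuSCs) of adult mice, with 2 libraries from cells stimulated with BMP6, a bone morphogenetic protein, and 2 from vehicle-treated control cells. All cells came from muscles of female C57BL/6N(Tg(Pax7-EGFP)Tajb) mice, 9 weeks old, were sorted for the Pax7-driven GFP and grown further. Cultures of both groups were kept at 3% O2 in medium with 15% fetal bovine serum. Both groups then spent 6 h in serum-free medium with 200 ng/mL of the soluble receptor BMPR-1A-Fc, which captures BMPs left over in the medium. BMP6 cells received 100 ng/mL BMP6 for 1 h and control cells received only the vehicle, 4 mM HCl with 0.1% BSA. The GFP sort selects on a single reporter, and the labels call the replicates biological without saying how many animals each holds. The p-values therefore measure the spread between these libraries.

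Ligands of this branch are secreted as dimers with a prodomain that has to be cleaved or released before the ligand is active. They bring together a type II and a type I receptor kinase, and the type I receptor phosphorylates SMAD2 and SMAD3, whereas BMP receptors phosphorylate SMAD1, SMAD5 and SMAD9. Both groups of SMADs share SMAD4 as a partner. In skeletal muscle, myostatin is known as a brake on muscle growth, and TGF-beta ligands are known to restrain differentiation and fusion of myoblasts.

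Levels are given in TPM, a transcript abundance that is scaled for transcript length and sums to 1000000 in each library. In units of 1000000, the reads rebuilt from coverage numbered 108 to 112 per library, and 13002 to 13203 entries per library reached 1 TPM. All 7 myogenic markers passed that level, and their summed level was 6664 to 7626 TPM per library. The labelled cell type was borne out by its lineage markers, although Myog, which marks differentiating cells, stood at up to 5472 TPM and the stem cell marker Pax7 at 8.29 to 11.7 TPM. No endothelial marker exceeded 1.87 TPM, no immune marker 1.68 TPM and no Schwann cell marker 0.601 TPM. The highest pericyte marker was Pdgfrb with up to 4.93 TPM. Of the 6 fibroblast markers, Col3a1 reached 109 TPM while Pdgfra stayed at or below 0.164 TPM. The summed level of the fibroblast list was 198 and 147 TPM in control replicates 1 and 2 and 188 and 124 TPM in BMP6 replicates 1 and 2, so it was higher in replicate 1 of both groups. In such bulk samples, fewer cells of a type and less RNA per cell cannot be told apart.

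Among the TGF-beta ligands, Tgfb3 had the highest TPM, Tgfb2 was next, and Tgfb1 stayed below 1 TPM. None of the 10 genes passed the adjusted p after 1 h of BMP6. The 7 genes with a mean of at least 1 TPM over the 4 libraries were tested, and Inhba, Inhbb and Tgfb1 fell short of that level. These 3 entered only a fit without the filter on low values. Of the pathway genes listed below, 1 passed in that fit and 6 in the main one, so the lack of a call there says little about these 3. Of the 7 tested genes, 0 were past an adjusted p of 0.1 (limma, Benjamini-Hochberg over 13128 entries) in either direction, with or without a term for the replicate number, called the replicate block below. In the same test without the block, 0.236% of the tested entries were called higher and 0.00762% lower. With the block these shares were 1.23% and 0.404%. At an unadjusted p under 0.05 there were 0 members without the block and 2 with it, Tgfb3 and Mstn. Of all tested entries, 3.2% had such a p without the block and 12.9% with it. On the log2(TPM + 1) scale, the 95% intervals of all 7 lay within a 2-fold change, with the lowest bound at -0.53 and the highest at 0.59. Every log2 fold change below is on that scale unless another is named. The scale understates changes of low genes such as Tgfbr3. Its log2 fold change was 0.13 there and 0.24 with 0.1 added to the TPM in place of 1. The median log2 fold change of the 7 genes was 0.08, beside 0.02 over all tested entries. The plot of levels by library shows the order of the genes, and the plot of changes shows their intervals.

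**Figure D1:**
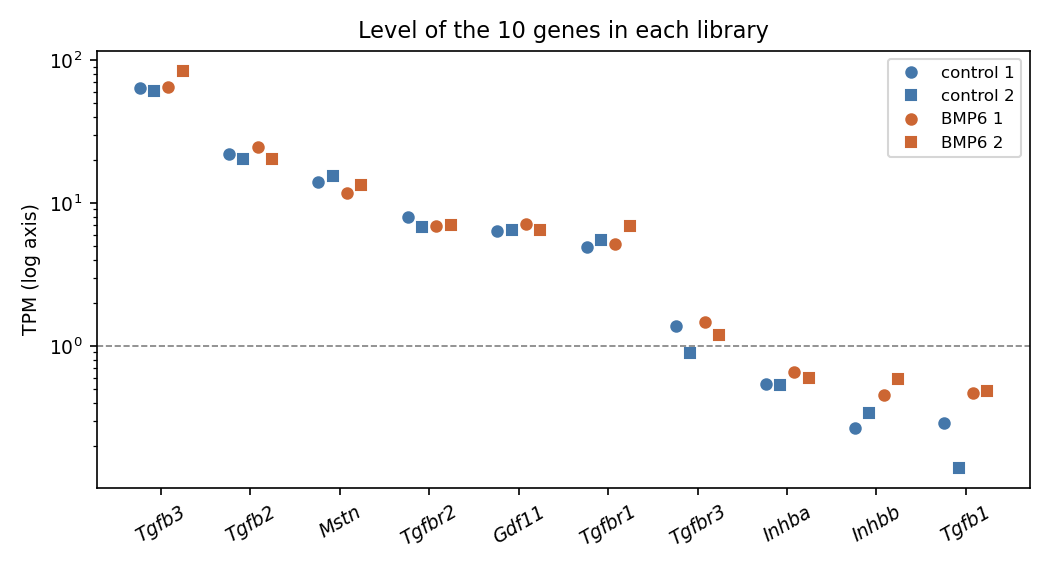
Level of the 10 genes in TPM on a log axis, 1 point per library (circles replicate 1, squares replicate 2, blue control, orange BMP6), ordered by the control mean. The dashed line is the level of 1 TPM that a gene's mean had to reach to be tested. Tgfb3 lies at 60.7 to 84.4 TPM and the 3 genes on the right stay below 1 TPM in every library.

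Tgfb3 (chr12:86103519-86125815, GRCm39, minus strand) encodes a TGF-beta ligand. Its level was 63.4 and 60.7 TPM in control replicates 1 and 2 and 64.3 and 84.4 TPM in BMP6 replicates 1 and 2. Both BMP6 libraries lay above both controls, but BMP6 replicate 1 did so by less than 1 TPM and only BMP6 replicate 2 stood apart. The means were 62.1 ± 1.87 and 74.3 ± 14.2 TPM (SD, n = 2 each), a level above that of 80.8% of the tested entries. The log2 fold change was 0.24 (95% interval -0.10 to 0.59, SE 0.14, limma adjusted p = 1.00), with 0.02 in replicate pair 1 and 0.47 in pair 2. With the replicate block the interval was 0.01 to 0.47 and the unadjusted p was 0.0405, but the limma adjusted p was 0.364. The 7 exons of its only listed transcript were all covered, and the last exon had 1.41 to 1.48 times the mean coverage of the others. With the exons before the last one alone, both BMP6 libraries were again above both controls, but replicate 1 only by 55.0 against 54.3 on the TPM scale. By the exons between the first and the last, the groups overlapped. Control replicates 1 and 2 had 75.6 and 70.9 there, and BMP6 replicates 1 and 2 had 74.7 and 96.5.

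Tgfb2 (chr1:186354989-186438186, minus strand) encodes another ligand of the same class, which binds its type II receptor poorly unless helped by the coreceptor betaglycan. Control replicates 1 and 2 had 22.2 and 20.2 TPM, and BMP6 replicates 1 and 2 had 24.8 and 20.3 TPM. The groups overlapped, and the log2 fold change was 0.08 (95% interval -0.25 to 0.41, limma adjusted p = 1.00). Tgfb3 exceeded Tgfb2 in every library, by 2.60 to 4.16 times in TPM. This ratio depended on the exons used. The first and the last exon of Tgfb2, with 1561 and 2815 bases, had a coverage of 68.2 to 111 reads per base, whereas its 5 exons between them had 243 to 554. By the exons before the last one, Tgfb3 was 1.73 and 2.04 times Tgfb2 in control replicates 1 and 2 and 1.68 and 2.79 times in BMP6 replicates 1 and 2. By the exons between the first and the last alone, the ratio was 1.10 and 1.26 in controls and 1.07 and 1.72 after BMP6, so the genes lay much closer together there.

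Tgfb1 (chr7:25386427-25404502, plus strand), the founding member of the family, was the lowest of the 10 by the control mean. It stood at 0.288 and 0.140 TPM in control replicates 1 and 2 and at 0.469 and 0.480 TPM in BMP6 replicates 1 and 2. These levels rest on 39.9, 18.8, 63.9 and 62.6 rebuilt reads, in the same order, which are not independent molecules. Both BMP6 libraries were higher than both controls, and the ratio of the group means was 2.22. The fold change in a fit without the filter on low values was 0.28 on the log2 scale, with an adjusted p of 1.00 in limma, and the unadjusted p was 0.0923. Tgfb1 supplied 0.173% to 0.524% of the summed TPM of the TGF-beta ligand genes, whereas Tgfb3 supplied 73.8% and 74.9% in controls and 71.8% and 80.2% after BMP6. By the exons before the last one, the share of Tgfb3 was 63.2% and 66.9% in controls and 62.2% and 73.2% after BMP6. By the exons between the first and the last, its share was lower again, at 52.3% and 55.7% in controls and 51.5% and 63.0% after BMP6.

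Non-overlap of the 2 groups was common among all genes. Both BMP6 libraries were above both controls in 16.6% of the tested entries and below both in 11.6%, and among the 7 tested members this held for Tgfb3 upward and Mstn downward. Of 6501 entries with a mean from 0.1 to under 1 TPM, 16.3% had both BMP6 libraries above both controls. All 3 members at that level (Inhba, Inhbb and Tgfb1) were of that kind.

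The Tgfb2 entry holds 2 transcripts that differ in a coding exon of 84 bases, or 28 codons, at chr1:186422918-186423001, which lies in the prodomain. It is shown because the files measure the 2 forms separately. The sequence is read 5′ to 3′ from the GRCm39 genome on the minus strand, with the exon in capitals between 15 bases of each neighbouring exon in lower case.
Tgfb2 exon: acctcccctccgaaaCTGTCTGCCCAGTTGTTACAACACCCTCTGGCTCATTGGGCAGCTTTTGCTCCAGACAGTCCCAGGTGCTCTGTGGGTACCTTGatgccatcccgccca
The transcript with the exon made up 26.4% and 29.6% of the gene's TPM in control replicates 1 and 2 and 28.5% and 24.5% in BMP6 replicates 1 and 2. The groups overlapped. By coverage, the exon itself had 8.18% to 10.7% of the depth of the exon that follows it, a smaller share than that of the transcript's TPM. The 2 transcripts also differ in their 3′ ends, and the part of those ends in the difference was not tested.

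Mstn (chr1:53100799-53107238, plus strand) encodes myostatin. It was the third most abundant gene of the branch, with 14.1 and 15.3 TPM in control replicates 1 and 2 and 11.8 and 13.3 TPM in BMP6 replicates 1 and 2. Both BMP6 libraries were below both controls, with means of 14.7 ± 0.906 TPM in controls and 12.5 ± 1.07 TPM after BMP6 (SD, n = 2 each). The log2 fold change was -0.22 (95% interval -0.53 to 0.10, SE 0.13, limma adjusted p = 1.00), and the within-pair values were -0.24 and -0.19. With the replicate block the interval was -0.42 to -0.01 and the unadjusted p was 0.0400, but the limma adjusted p was 0.362. Over the 2 exons before the last one, on the TPM scale, control replicates 1 and 2 had 12.4 and 14.1 and BMP6 replicates 1 and 2 had 10.2 and 13.9, so there the groups overlapped. Mstn was the only gene of the 10 that was lower after BMP6 in both replicate pairs, while 7 were higher in both and 2 were split. Some of these pair values were near 0, such as 0.02 for Tgfb3 in pair 1 and 0.006 for Tgfb2 in pair 2. The share of all entries with the same direction in both pairs was not computed, so these counts describe the members only.

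Gdf11 (chr10:128718164-128727587, minus strand) encodes the closest relative of myostatin. Its entry had 6.33 and 6.44 TPM in control replicates 1 and 2 and 7.08 and 6.43 TPM in BMP6 replicates 1 and 2, with overlapping groups and a log2 fold change of 0.07 (95% interval -0.26 to 0.40, limma adjusted p = 1.00). Nearly all of this signal came from the last of its 3 exons. That exon of 3192 bases had a mean coverage of 49.0 to 56.3 reads per base over the 4 libraries, against 0.796 to 1.63 for the middle exon of 398 bases and at most 0.172 for the first exon of 472 bases. The ratio of the last exon to the exons before it was 61.7 to 141, while it was 0.446 to 1.48 in the other 6 tested members. On the TPM scale, the exons before the last one gave 0.0946 ± 0.0531 in controls and 0.0967 ± 0.0323 after BMP6 (SD, n = 2 each). The last exon shares 448 bases with an annotated exon of Sarnp, which runs on the opposite strand and had a mean of 419 TPM. The libraries carried no strand, so reads of the 2 genes cannot be told apart there, and the source of the reads in the rest of the exon was not tested. The entry's TPM is thus a level of its last exon, and Gdf11 took place 5 of 10 by the whole entry but place 9 by the exons before the last one.

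**Figure D2:**
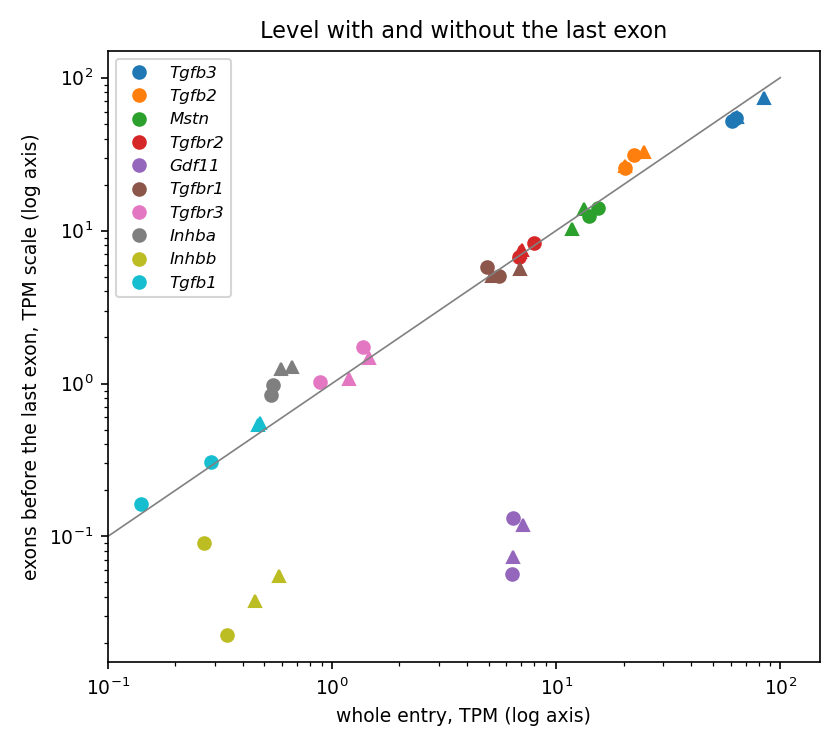
Level of each gene by its whole entry (horizontal axis, TPM) against the level by the exons before its last exon (vertical axis, coverage on the TPM scale), both on log axes, with 1 point per library (circles control, triangles BMP6) and the line of equal values. Most genes lie near the line, and Gdf11 and Inhbb lie well below it.

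Inhba (chr13:16186436-16206206, plus strand) and Inhbb (chr1:119343195-119349978, minus strand) encode the subunits that form activins. Inhba had 0.544 and 0.534 TPM in control replicates 1 and 2 and 0.661 and 0.593 TPM in BMP6 replicates 1 and 2. Inhbb had 0.267 and 0.339 TPM in controls and 0.452 and 0.583 TPM after BMP6, with a ratio of the group means of 1.71. Both genes were higher in both BMP6 libraries than in both controls. In the fit without the filter on low values, the log2 fold changes were 0.08 for Inhba and 0.22 for Inhbb, both with an adjusted p of 1.00 in limma. The last exon of Inhbb had 4.12 to 23.7 times the coverage of its first exon, and by the first exon alone, the groups overlapped. By the exons of Inhba before the last one, both BMP6 libraries stayed above both controls, at 1.28 and 1.25 against 0.977 and 0.846 on the TPM scale.

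The receptor genes were expressed at a lower level than the abundant ligand genes. Tgfbr2 (chr9:115913361-116004428, minus strand) encodes the type II receptor that binds TGF-beta. Its level was 7.96 and 6.80 TPM in control replicates 1 and 2 and 6.87 and 7.04 TPM in BMP6 replicates 1 and 2. The groups overlapped, and the log2 fold change was -0.07 (95% interval -0.41 to 0.27, limma adjusted p = 1.00). Transcripts of 69 other genes, 45 of them tested, align to a Tgfbr2 transcript over at least 100 bases at 95% identity or more, so its level may include reads of these. By the exons before its last one, which are distant from the long 3′ end, the level was 6.77 to 8.25 on the TPM scale, close to that of the entry.

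Tgfbr1 (chr4:47353222-47414931, plus strand) encodes the type I receptor of the complex, also known as ALK5. It had 4.92 and 5.55 TPM in control replicates 1 and 2 and 5.19 and 6.91 TPM in BMP6 replicates 1 and 2. Only BMP6 replicate 2 lay above both controls, and the log2 fold change was 0.17 (95% interval -0.25 to 0.59, limma adjusted p = 1.00). Tgfbr3 (chr5:107254436-107437495, minus strand) encodes betaglycan, the coreceptor that presents TGF-beta to the type II receptor and also binds inhibin. It was the lowest of the receptors, at 1.38 and 0.885 TPM in control replicates 1 and 2 and 1.46 and 1.19 TPM in BMP6 replicates 1 and 2. Its groups overlapped, and the log2 fold change was 0.13 (95% interval -0.31 to 0.58, limma adjusted p = 1.00). By the exons before the last one the direction was the opposite, with 1.37 ± 0.501 in controls and 1.27 ± 0.282 after BMP6 on the TPM scale (SD, n = 2 each). The Tgfbr3 entry also holds Gm43422, a gene model on the same strand that shares 297 exon bases with it.

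**Figure D3:**
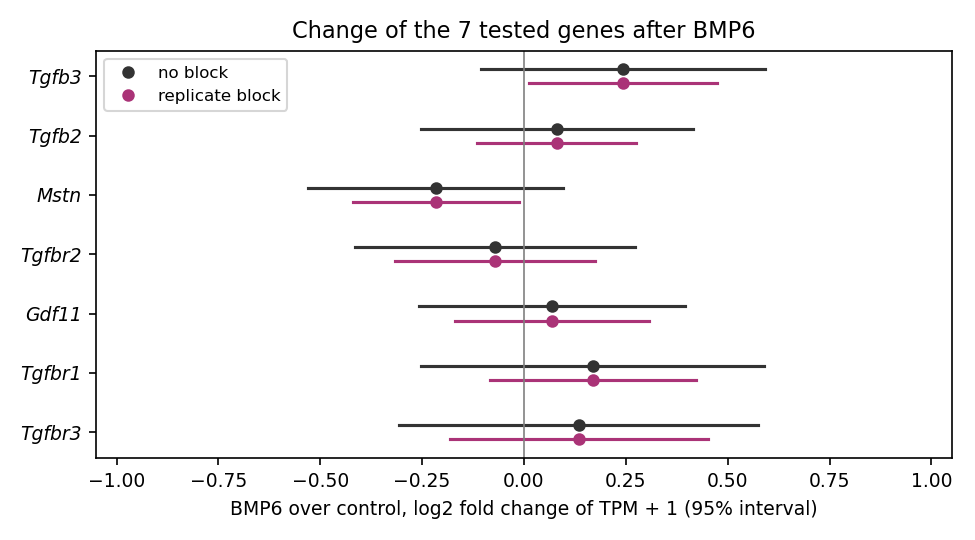
Log2 fold change of TPM + 1, BMP6 over control, of the 7 tested genes, with 95% intervals from limma (black without and purple with the replicate block). All intervals stay between -1 and 1, and with the block those of Tgfb3 and Mstn do not include 0.

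Both signalling receptors are listed in a form with and a form without a short coding segment in the extracellular part. The 2 segments are shown because each form has its own TPM. The segment of Tgfbr1 at chr4:47393247-47393258 has 12 bases, or 4 codons, and that of Tgfbr2 at chr9:115987339-115987413 is an exon of 75 bases, or 25 codons. Each sequence is read 5′ to 3′ on the gene's strand from GRCm39, with the segment in capitals between 15 neighbouring coding bases in lower case on each side.
Tgfbr1 segment: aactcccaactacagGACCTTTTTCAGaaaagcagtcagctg
Tgfbr2 segment: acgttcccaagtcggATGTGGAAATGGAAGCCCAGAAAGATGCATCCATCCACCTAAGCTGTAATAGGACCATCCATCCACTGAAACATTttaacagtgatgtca
For Tgfbr2, the form with the segment made up 91.5% and 95.5% of the TPM in control replicates 1 and 2 and 96.1% and 93.9% in BMP6 replicates 1 and 2. This form is known to bind TGF-beta 2 without betaglycan. By coverage, the exon had 36.2% to 45.3% of the depth of the next exon, and its depth of 15.2 to 28.0 was close to that of the first exon, 14.4 to 19.8, which both forms share. For Tgfbr1, the form with the segment made up 56.2% and 61.3% of the TPM of the 2 forms in control replicates 1 and 2 and 62.0% and 40.1% in BMP6 replicates 1 and 2. The form without it stood at 2.13 and 2.09 TPM in controls and at 1.91 and 4.08 TPM after BMP6. These values are the authors' apportionment of TPM between the forms, and the depth of the 12 bases themselves was not analysed here. The last Tgfbr1 exon, which both forms share, had 7.25 on the TPM scale in BMP6 replicate 2. Control replicates 1 and 2 had 4.59 and 5.59 there. The exons before it together gave 5.65 in BMP6 replicate 2 and 5.76 and 5.02 in controls, but they differed among themselves. In exons 1, 7 and 8, and barely in exon 6, BMP6 replicate 2 was above both controls, with 5.66 against 3.57 and 3.38 in exon 1. In exon 4 it was below both, with 3.47 against 5.08 and 4.79, and in exons 2, 3 and 5 it lay between them. No test was run on these shares, and with 2 libraries per group they are given as values.

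**Figure D4:**
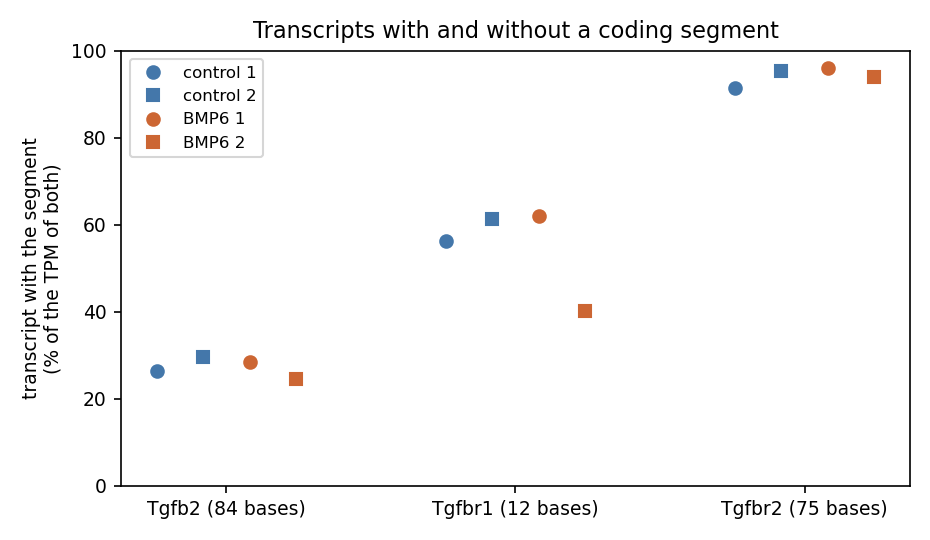
Share of the transcript with the coding segment in the TPM of both transcripts, in percent, for Tgfb2, Tgfbr1 and Tgfbr2, with 1 point per library (circles replicate 1, squares replicate 2, blue control, orange BMP6). Tgfb2 lies at 24.5% to 29.6% and Tgfbr2 at 91.5% to 96.1%, and in Tgfbr1 BMP6 replicate 2 lies apart at 40.1%.

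In order of the control mean, the genes ran Tgfb3, Tgfb2, Mstn, Tgfbr2, Gdf11, Tgfbr1, Tgfbr3, Inhba, Inhbb and Tgfb1. The ranges of the 4 libraries did not overlap between neighbours down to Tgfbr2. Gdf11 overlapped in range with both of its neighbours, Tgfbr2 and Tgfbr1. Tgfbr1 and Tgfbr3 were apart, as were Tgfbr3 and Inhba, and the ranges of Inhba, Inhbb and Tgfb1 overlapped from each to the next. Mstn was 2.22 and 2.38 times the TPM of Gdf11 in controls and 1.66 and 2.07 times after BMP6. By the exons before the last one it was 107 to 217 times in controls and 85.2 to 188 times after BMP6, where Gdf11 was near 0. By the exons before the last one, Tgfb3, Tgfb2, Mstn and Tgfbr2 kept the first 4 places, and Tgfbr1, Tgfbr3, Inhba, Tgfb1, Gdf11 and Inhbb followed.

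The 10 genes were set beside 65 other genes of the pathway in 8 lists, of which 45 could be tested and Gdf1 had no entry of that name. Of these, 6 were past the adjusted p, all higher after BMP6 and all in the list of known TGF-beta target genes. Over all tested entries 0.236% were called higher, and since the lists were chosen with results of these data known, the count in this list is not independent evidence. In this list 15 of 16 genes were tested, 13 were higher and 2 lower by sign, and the median log2 fold change was 0.51. Klf10, which encodes an early TGF-beta-inducible transcription factor, rose from 46.4 and 54.9 TPM to 165 and 193 TPM (log2 fold change 1.80, limma adjusted p = 0.0132). Skil, whose product SnoN represses SMAD-dependent transcription, rose from 10.0 and 12.7 TPM to 36.2 and 44.5 TPM (1.74 on the log2 scale, limma adjusted p = 0.0418). Smad7, which encodes an inhibitory SMAD, rose from 0.633 and 0.926 TPM to 5.12 and 7.36 TPM (2.01 on the log2 scale, limma adjusted p = 0.0511). Ccn2, the gene of connective tissue growth factor, rose by 1.66 (adjusted p = 0.0132), Junb by 1.39 (adjusted p = 0.0132) and Snai1 by 1.37 on the log2 scale (adjusted p = 0.0511, all limma). Several of these genes, Smad7 among them, are also known targets of BMP signalling. With the replicate block, Pmepa1 rose as well, from 8.79 and 11.9 to 16.2 and 20.7 TPM (0.78 on the log2 scale, limma adjusted p = 0.00352 with and 0.873 without the block), as did Bhlhe40 by 0.44 (0.0245 with and 1.00 without). The most abundant tested gene of this list was Junb, with 108 and 120 TPM in controls and 301 and 297 TPM after BMP6.

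The other 7 lists had 0 genes past the adjusted p in limma, without and with the replicate block. Of the activin and myostatin receptors, Acvr2a was the most abundant of the 2 tested genes, with 8.32 and 8.75 TPM in controls and 8.33 and 10.0 TPM after BMP6. Acvr2b, the main type II receptor of myostatin, had a log2 fold change of -0.01, and the type I receptor gene Acvr1b was below the tested level with 0.420 to 0.727 TPM. Among the coreceptors and receptor partners, 5 of 6 genes were tested and Cd109 was the most abundant, with a log2 fold change of 0.15. All 4 genes of the SMAD list were tested. Smad2, the most abundant of them, had a log2 fold change of 0.06 (95% interval -0.29 to 0.42) and Smad3 of -0.00 (95% interval -0.38 to 0.38).

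Of the activin and myostatin antagonists, 4 of 6 were tested, all with higher means after BMP6 and a median log2 fold change of 0.24, yet none passed the adjusted p. For Dcn the log2 fold change was only 0.01, and its pairs were split, with 0.18 in replicate pair 1 and -0.16 in pair 2. Fst, which encodes the activin-binding protein follistatin, had 20.5 and 20.8 TPM in controls and 23.3 and 28.1 TPM after BMP6 (0.30 on the log2 scale, limma adjusted p = 1.00 without and 0.238 with the block). Fstl3, which encodes a related inhibitor, was the most abundant and had a log2 fold change of 0.21. In the list for latency and activation of TGF-beta, 9 of 14 genes were tested, and the integrin subunit gene Itgb1 was the most abundant with 290 to 325 TPM and a log2 fold change of 0.06. Among convertases and prodomain proteases, 4 of 7 were tested. Pcsk6 was the most abundant with 172 to 205 TPM (-0.03 on the log2 scale), and Furin, whose product cleaves the prodomain of TGF-beta, had a log2 fold change of -0.09. Of the other ligands of the branch, 2 of 9 were tested, and Gdf15 was the more abundant with a log2 fold change of -0.06.

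**Figure D5:**
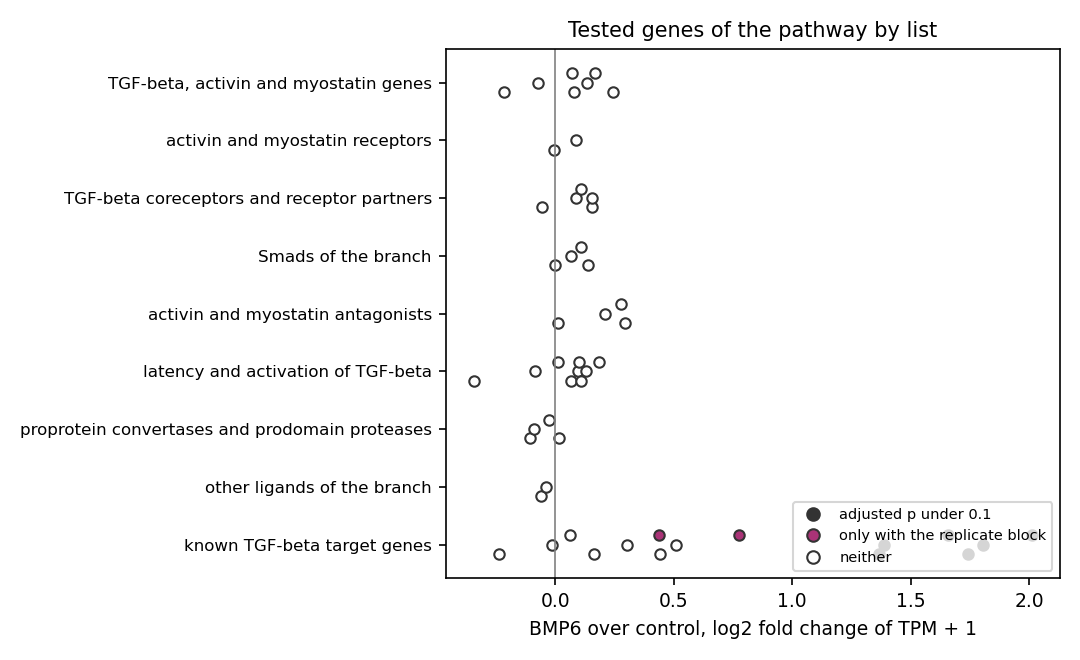
Log2 fold change of TPM + 1, BMP6 over control, of the tested genes of the branch (top row) and of the 8 pathway lists, with 1 point per gene. Black points passed an adjusted p of 0.1 without the replicate block (6 genes, all among known TGF-beta target genes), purple points did so with the block alone, and open points in neither fit.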

How the data were processed

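PolyA RNA was sequenced from unstranded, amplified full-length cDNA libraries without molecular identifiers. Per the study's methods and the processing notes, the authors aligned the reads to GRCm39 with STAR 2.7.11a (GENCODE M32), sorted them with SAMtools 1.17, and assembled and quantified transcripts with StringTie 2.2.1. Gene-level TPM of all libraries stand in 1 table deposited by the authors, and FPKM in another. The deposited signal per transcript and exon is coverage, unscaled to depth. Their own comparison used a count model on reads rebuilt from coverage, with 2-fold and adjusted p under 0.1 as thresholds. Log values were tested here, since no table held counts.

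The 10 members and all gene lists were chosen with earlier results of these data known. Groups came from the sample titles. The test was limma 3.58.1 (R 4.3.3) on log2(TPM + 1) with the trend option of eBayes, two-sided and adjusted over the 13128 entries with a mean of at least 1 TPM. Fold changes on that scale understate changes of low genes. The script was tested on simulated data. Reads were rebuilt as coverage times length over 100 bases. Exon coverage was put on the TPM scale by each library's ratio of TPM to coverage. Exon sequences and overlaps used GENCODE M39 on GRCm39, and copies were searched with BLAST+ 2.17.0. All members were named with their values. Of the lists, genes past the adjusted p without or with the block, the most abundant tested gene, and Furin, Fst, Acvr2b, Acvr1b, Smad2 and Smad3 were named. Thbs1, Gdf1, Dcn, Sarnp and Gm43422 were named outside that rule, after their values were seen.

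Libraries with the same replicate number carry the same value in the batch field of the labels. Their deviations from the group means correlated with r = 0.563 across genes, and the first principal component (54.3% of the variance) separated the numbers. Alternatives were other pseudocounts, filters and normalization, FPKM, voom, the replicate block and leaving out each library. The fit with the block and without the filter and the levels without the last exon or without both end exons were added after the data were seen.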

Additional observations from a re-analysis of the deposited data

How the results depend on the processing

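No member passed the adjusted p in any fit run (limma, and voom on rebuilt reads). Of 107 fold changes of members under alternatives, 103 kept their direction and side of the threshold. Part of these could not change direction. The filters, the trend option of eBayes and the replicate block on log2(TPM + 1) leave a fold change as it is. In those fits only the side of the threshold could move, so the count of 103 is no measure of how stable the directions were. The remaining 4 reversed, all on leaving out 1 library. Tgfb2 ranged from -0.057 (without BMP6 replicate 1) to 0.218, Tgfbr1 from -0.0078 (without BMP6 replicate 2) to 0.346, Tgfbr2 from -0.171 to 0.029 (without control replicate 1) and Tgfbr3 from -0.033 (without control replicate 2) to 0.301. In the same fits, Tgfb3 ranged from 0.05 (without BMP6 replicate 2) to 0.44 (without BMP6 replicate 1), and Mstn from -0.30 to -0.14. The members' median log2 fold change of 0.080 was 0.046 with a pseudocount of 5, 0.051 after quantile normalization, 0.054 on FPKM, 0.075 with a mean of at least 5 TPM, 0.074 in voom, 0.076 in voom with the replicate block, and 0.107 without the filter, with or without the block. It ranged from 0.0088 (without BMP6 replicate 1) to 0.096 when each library was left out.

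The 6 pathway genes past the adjusted p became 1 without the filter, which tests more entries, 0 without the filter and with the replicate block, 8 with the block alone and 10 in voom with the block, where Thbs1 was among those added (adjusted p = 0.0264, lower after BMP6). The count was 6 in each fit that left out a library. Pairing by the replicate block changed no call among the members. The 3 members under 1 TPM rest on 18.8 to 260 rebuilt reads per library.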
